A study of Rattus norvegicus with 2 samples.

Results

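The Z-disc is the dense plate at each end of a sarcomere, the contractile unit of striated muscle. Actin filaments from neighbouring sarcomeres are anchored there by alpha-actinin, and a set of scaffold proteins ties alpha-actinin to titin, to signalling enzymes and to the desmin filaments that link one myofibril to the next. Described here are 10 genes of this scaffold: the alpha-actinins Actn2 and Actn3, the calsarcins (myozenins) Myoz1, Myoz2 and Myoz3, the PDZ and LIM domain genes Ldb3 and Pdlim3, myotilin (Myot), titin cap (Tcap) and desmin (Des). They were chosen by name, through the gene symbols of the array's probe annotation, with no measured value in the rule. All 10 were found, on 16 probe sets that name 1 gene each, and all 10 were among the 9956 genes measured.

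The data were 2 Affymetrix arrays of total RNA from the adductor, a muscle of the inner thigh, of male Lewis rats of 275 g body weight. Lewis is an inbred strain, and the labels used here give no age. In the stimulated group the left adductor was pricked 100 times with a steel needle of 0.14 mm diameter over a square of 10 mm by 10 mm, and muscle was taken 24 hours later. In the control group muscle came from the right limb, which was left untreated. Each group holds 1 array, so no difference below has replicates or a test behind it, and a gene called higher or lower is so in this pair of samples. How many animals were used, and whether 1 rat gave both pieces, is not stated in the labels.

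The deposited values are MAS5 signals, brightness values on a linear scale in arbitrary units, with 1 value per probe set and array. A probe set is a group of short probes for the same transcript. Ratios are stimulated over control on the log2 scale, where 0 is no difference and 1 is 2-fold. The error at hand is the disagreement between probe sets of the same gene, an SD of 0.31 for a single probe set (1.24-fold) over 2174 genes, and of 0.25 in the brightest 725. It holds no variation between limbs or animals. The number of arrays limits the precision of every value. Signals under a floor of 19.8, the median of all signals, were raised to it, and each gene is represented by its brightest probe set (by the mean of the log2 signals).

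Muscle genes gave high signals on both arrays. The muscle creatine kinase gene Ckm had a signal of 12064 on the stimulated and 16392 on the control array, and skeletal actin, Acta1, had 12095 and 16712. Of all probe sets, 48.9% on the stimulated and 51.1% on the control array reached the floor. As the floor is the median of both arrays together, these shares centre on 50% by definition and are no detection rate. The median gene had a log2 ratio of 0.019. The 18 probe sets for hybridisation spike-ins, RNAs added in known amounts, all had less signal in the stimulated sample (median log2 ratio -0.38). Scaling to them moves the median gene to 0.39, so directions below are relative to the median gene, and under that scaling, left unadjusted, Myoz1, Myot, Tcap and Des change sign.

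The scaffold genes did not move as a group. Myoz2 was 2.78-fold higher in the pricked limb, Myoz3 was 1.81-fold lower and Ldb3 1.60-fold lower by its brightest probe set, while the other 7 lay within 1.5-fold. At least 1.5-fold higher was 1 of 10 genes, against 6.59% of all 9956 measured genes, and at least 1.5-fold lower were 2 of 10, against 6.94%. At 2-fold, 1 was higher and 0 were lower, against 1.43% of all genes in each direction. The median log2 ratio of the 10 genes was -0.21, beside 0.019 for all measured genes, with 3 genes above 0 and 7 below. Of all measured genes 47.7% lay below 0, and of the 60 with a mean signal of 5000 or more 78.3% did. The median of the 10 was 0.17 with spike-in scaling, where all measured genes had 0.39, and -0.0016 relative to genes of like signal. For the 6 scaffold genes with a mean signal of 5000 or more, many of those neighbours are muscle genes. A difference shared with them is taken out by that comparison. Of the 10, 5 lay within the probe set SD of 0.31, as did 62.4% of all genes.

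**Figure D1:**
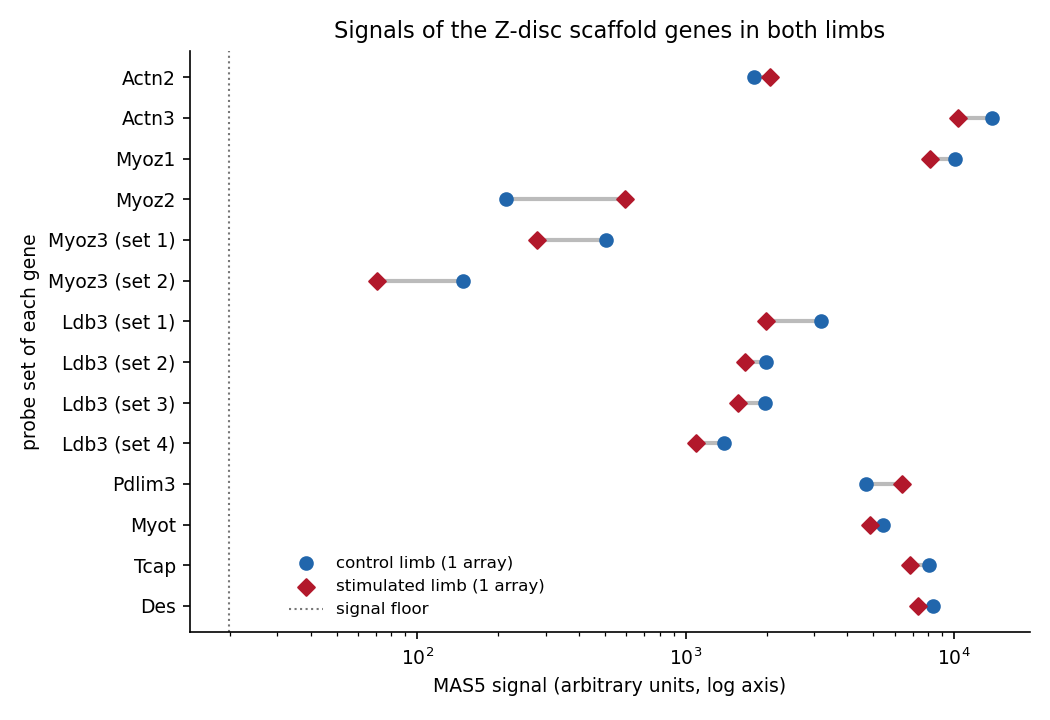
MAS5 signals (arbitrary units, log axis) of the 14 scaffold probe sets above the floor, with circles for the control and diamonds for the stimulated limb, 1 array each; the dotted line is the floor of 19.8. Myoz2 has the widest gap toward the stimulated limb (213 to 593), and both Myoz3 probe sets run the other way.

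Of the 3 scaffold families with more than 1 member here, the calsarcins differed most among themselves. Calsarcins bind alpha-actinin, filamin C and titin cap at the Z-disc and also bind calcineurin, a calcium-dependent phosphatase. Myoz2 (calsarcin-1) is the form of heart and slow-twitch fibres, and Myoz1 (calsarcin-2) and Myoz3 (calsarcin-3) are forms of fast-twitch muscle. The 250 bases upstream of the RefSeq transcription start (build GRCr8) are shown for Myoz2 and Myoz1. This pair was chosen because Myoz2 was higher and Myoz1 lay just within the probe set SD of 0.31, while both windows hold a match to the MEF2 motif. MEF2 is the binding motif of a family of muscle transcription factors. Capitals mark the MEF2 match, and each sequence reads 5′ to 3′ toward the gene.
Myoz2, chr2:213852779-213853028, minus strand: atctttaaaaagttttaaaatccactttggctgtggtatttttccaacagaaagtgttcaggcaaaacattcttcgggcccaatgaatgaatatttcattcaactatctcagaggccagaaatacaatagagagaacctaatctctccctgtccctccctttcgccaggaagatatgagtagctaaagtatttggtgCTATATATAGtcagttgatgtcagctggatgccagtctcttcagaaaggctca
Myoz1, chr15:3693363-3693612, plus strand: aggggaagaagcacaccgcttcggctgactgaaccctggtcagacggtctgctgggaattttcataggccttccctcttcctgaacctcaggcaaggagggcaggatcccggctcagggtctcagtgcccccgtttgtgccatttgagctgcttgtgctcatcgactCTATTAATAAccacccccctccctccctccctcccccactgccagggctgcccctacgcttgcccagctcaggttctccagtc

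Myoz2 (Entrez gene 295426, probe set 1371801_at) had a signal of 593 on the stimulated and 213 on the control array. That is a log2 ratio of 1.48, several times the probe set SD. Over all measured genes, 51 had a ratio at least as high, Myoz2 included. Among the 2181 genes with a mean signal between 200 and 1000, 11 had a higher ratio. A single probe set names this gene, so its ratio has no second measurement. Under all 8 other settings it lay between 1.41 and 1.86.

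Myoz3 (Entrez gene 689274) was lower on both of its probe sets. The brighter (1379707_at) had a signal of 280 on the stimulated and 506 on the control array, a log2 ratio of -0.86. The dimmer (1386183_at) had 70.9 and 148, a log2 ratio of -1.07 or 2.09-fold lower. Both probe sets thus gave a similar difference, with a mean of -0.96 ± 0.15 (SD, 2 probe sets of the same 2 arrays). Only 25 of the 2181 genes of like signal had a lower ratio than the brighter probe set.

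Myoz1 (Entrez gene 498440) had a signal of 8126 on the stimulated and 10038 on the control array, 1.24-fold lower. Its log2 ratio of -0.30 is about the size of the probe set SD of 0.31 and past the 0.25 found for the brightest genes. It was -0.050 with quantile normalization and 0.079 with spike-in scaling. The ratio of Myoz2 exceeded that of Myoz1 by 1.78 on the log2 scale and that of Myoz3 by 2.33. Differences between probe sets of the same gene had an SD of 0.44, so these gaps were 4.04 and 5.29 times that SD. Myoz1 and Myoz3 differed from each other by 0.55, or 1.25 times that SD.

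**Figure D2:**
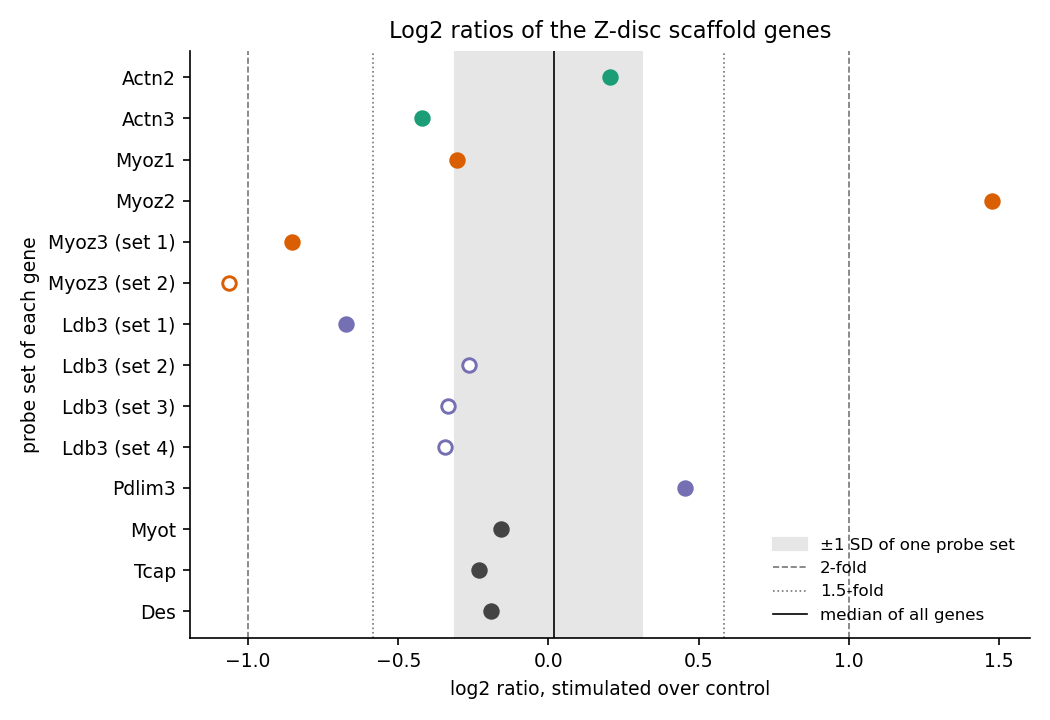
Log2 ratio of stimulated over control for the 14 scaffold probe sets above the floor; filled points stand for the gene, open points are its other probe sets, the grey band is ±1 SD of a single probe set (0.31), and colours mark the alpha-actinins, calsarcins and PDZ-LIM genes. Myoz2 at 1.48 lies alone on the right, both Myoz3 points lie at the far left, and Myot, Tcap and Des lie inside the band.

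The alpha-actinins crosslink the actin filaments in the Z-disc. Actn2 is made in all skeletal fibres and in heart, and Actn3 in fast fibres. Actn2 (Entrez gene 291245) had a signal of 2064 on the stimulated and 1792 on the control array, a log2 ratio of 0.20, within the probe set SD. Actn3 (Entrez gene 171009) had 10280 and 13769, a log2 ratio of -0.42 or 1.34-fold lower. The Actn2 and Actn3 ratios differed by 0.63, which is 1.42 times the SD between probe sets of a gene. The Actn3 value was not separate from that of other very bright genes: the 60 genes with a mean signal of 5000 or more had a median log2 ratio of -0.24, 47 of them lay below 0, and 12 were lower than Actn3. These bright genes are in part muscle genes, and the 40 outside the muscle lists used here had a median of -0.18. Those 40 still hold muscle genes, such as Myl11 (-0.48) and the myoglobin gene Mb (-0.11). Brightness and muscle origin therefore cannot be told apart by them. Among the 12 below Actn3 were muscle genes such as Myh4, Ckm and Acta1. With quantile normalization the ratio of Actn3 was 0.0, because its rank was the same on both arrays.

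**Figure D3:**
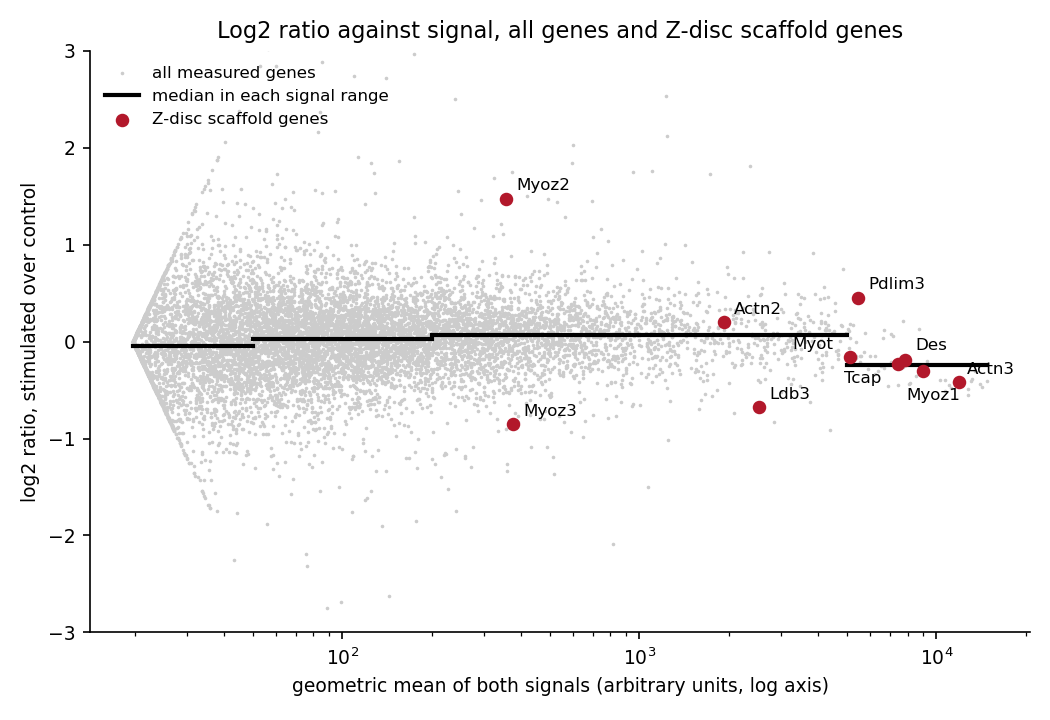
Log2 ratio against the geometric mean of both signals (log axis) for all measured genes (grey), with the scaffold genes in red and black bars at the median of each signal range; 3 genes lie beyond the plotted range. The bar drops to -0.24 at signals of 5000 and above, where Actn3, Myoz1, Tcap, Des and Myot cluster around it and Pdlim3 stands above it.

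Ldb3 and Pdlim3 encode proteins with a PDZ domain that binds alpha-actinin, and they went apart. Ldb3 (ZASP or cypher, Entrez gene 498587) holds the alpha-actinin lattice together under load and is made in several splice forms. Its brightest probe set (1372737_at) had a signal of 1994 on the stimulated and 3184 on the control array, a log2 ratio of -0.67. The next (1375303_at) had 1658 and 1994, a log2 ratio of -0.27. The third (1371984_at) had 1563 and 1969, and the fourth (1375982_at) had 1093 and 1386, with log2 ratios of -0.33 and -0.34. All 4 were lower in the stimulated limb, with a mean of -0.40 ± 0.18 (SD, 4 probe sets of the same 2 arrays), and only the brightest passed 1.5-fold. The other 2 of its 6 probe sets lay below the floor on both arrays. With the median over probe sets, -0.34, Ldb3 no longer passed 1.5-fold, and the count of lower scaffold genes was 1 in place of 2. Among the 493 genes with a mean signal between 1000 and 5000, 6 had a lower ratio than the brightest Ldb3 probe set.

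The upstream window of Ldb3 is shown because it was the only window of the scaffold genes with a match to the CArG box, the motif of serum response factor. Capitals mark that match.
Ldb3, chr16:9924680-9924929, minus strand (GRCr8): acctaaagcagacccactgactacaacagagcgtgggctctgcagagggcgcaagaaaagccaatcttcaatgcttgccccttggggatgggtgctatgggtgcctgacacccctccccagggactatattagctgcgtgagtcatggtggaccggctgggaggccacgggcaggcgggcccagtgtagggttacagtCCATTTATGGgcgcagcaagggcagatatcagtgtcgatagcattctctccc

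Pdlim3 (ALP, actinin-associated LIM protein, Entrez gene 114108) had a signal of 6396 on the stimulated and 4669 on the control array, 1.37-fold higher with a log2 ratio of 0.45. No other gene among the 60 of signal 5000 or more had a ratio as high, and the next was Tmsb4x, an actin monomer-binding peptide, at 0.21. That order was read from the data after the values were seen. Relative to the median of genes of like signal Pdlim3 lay at 0.59, just past 1.5-fold. It exceeded the brightest Ldb3 probe set by 1.13 on the log2 scale, or 2.56 times the SD between probe sets of a gene. That Ldb3 probe set had the lowest ratio of the 4 above the floor, whose median was -0.34, so the gap to the others is smaller. A single probe set names Pdlim3.

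The differences of Myot, Tcap and Des were smaller than the probe set SD. Myotilin crosslinks actin and binds alpha-actinin and filamin C, and its signals were 4859 on the stimulated and 5428 on the control array. Titin cap binds the end of titin in the Z-disc, with signals of 6856 and 8042. Desmin is the muscle intermediate filament protein, with signals of 7316 and 8360. Their log2 ratios were -0.16, -0.23 and -0.19, close to the median of -0.24 of the 60 brightest genes, and with spike-in scaling all 3 turned to values between 0.15 and 0.22. Des was also above 0 with quantile normalization (0.040). Desmin is made in smooth muscle as well, where the list of 8 markers had 6 members below 0 and a summed signal of 1408 on the stimulated and 1962 on the control array. The smooth muscle actin gene Acta2 was 2.28-fold lower (340 against 775). It had the highest signal of the list on both arrays and so weighs most in that sum. No other marker of the list was 1.5-fold lower. Smtn and Lmod1 were above 0, with log2 ratios of 0.44 and 0.43, and the other Smtn probe set was at -0.47. The part of smooth muscle in the value of Des was not tested.

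Upstream windows were found for 7 of the 10 genes, namely Actn2, Actn3, Myoz1, Myoz2, Myoz3, Ldb3 and Des, and 5 motifs were searched on both strands. The MEF2 motif was present in the windows of Myoz1 and Myoz2 and in 3.07% of 27457 upstream windows of the same length. In Myoz2 it spans bases 53 to 44 before the start, and in Myoz1 bases 83 to 74. The CArG box was found in Ldb3, 52 to 43 bases before the start, and in 1.5% of all windows. An E-box (CANNTG, the motif of MyoD-type factors among others) was found in Actn2, Myoz1, Myoz2, Myoz3 and Des and in 65.2% of all windows. The M-CAT motif CATTCC was found in Myoz3 and in 11.8% of all windows. The core GGAAA of NFAT sites, factors activated by calcineurin, was found in Myoz2 and Des and in 56.7% of all windows. No 2 of these matches overlapped. These are matches of letters and say nothing of binding.

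Fibre type markers differed between the samples as well. All 8 measured of 9 slow-fibre markers were above 0, with a median log2 ratio of 1.83. Of the 8, 6 were at least 2-fold higher and 0 lower, against 1.43% of all measured genes in each direction. The summed signal of the 8 was 2012 on the stimulated and 774 on the control array. Single signals lay between 60.0 and 572 in the first and between 2.22 and 326 in the second. Examples were the slow troponin C gene Tnnc1 (232 against 31.4) and the regulatory light chain gene Myl2 (572 against 101). The defining slow myosin, Myh7, had a signal of 60.0 in the stimulated sample and lay below the floor in the control, so it was at least 3.04-fold higher, while the log2 ratio of its other measured probe set was 0.19. Also at least 2-fold higher were the slow troponin genes Tnni1 (176 against 39.3) and Tnnt1 (82.2 against a control signal below the floor, at least 4.16-fold) and the calcium store gene Casq2 (272 against 111). The summed slow-fibre signal was thus 2.60-fold higher. That sum depends on Myl3, which had the highest control signal of the list and hardly differed (341 against 326, log2 ratio 0.064). In bulk tissue more cells of a type and more RNA per cell cannot be told apart, and the part of slow fibres in the Myoz2 value was not tested.

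Fast-fibre markers, measured for 11 of 12 genes, had a median log2 ratio of -0.42, with 10 below 0. Beyond 2-fold in either direction were 0 of the 11, against 1.43% of all measured genes in each. The last of the 12, Mylpf, is annotated under its newer symbol Myl11 and had a log2 ratio of -0.48. The fast-fibre forms Actn3 (-0.42) and Myoz1 (-0.30) lay near that median. Myoz3 (-0.86) lay below it, and below the lowest single marker, Pvalb, parvalbumin (-0.51). Myh2, the fast oxidative heavy chain, went the other way with 2010 against 1008. The summed fast-fibre signal was 85564 on the stimulated and 113415 on the control array, with single signals from 2010 to 11352 and from 1008 to 15210. Most of the fast markers had signals above 5000 on both arrays, the range in which most genes lay below 0, and the part of fibre mix in the values of Actn3, Myoz1 and Myoz3 was not tested.

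Myoz2 is also a heart gene. The defining cardiac genes Myh6, Tnni3, Tnnt2, Mybpc3 and Myl7 lay below the floor on both arrays. Of the other 3 cardiac markers, the natriuretic peptide genes Nppa and Nppb reached 23.1 and 25.1 in the stimulated sample and lay below the floor in the control. Myl4, a light chain of atrial and developing muscle, had 266 against 157.

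**Figure D4:**
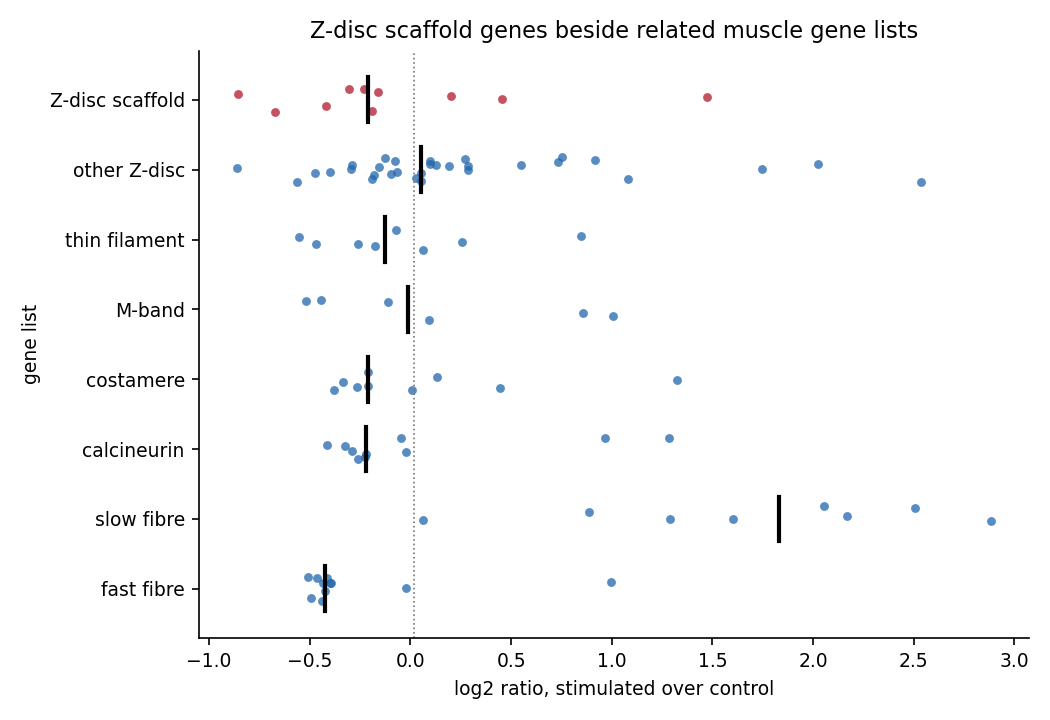
Log2 ratio of stimulated over control for the 10 scaffold genes (red) and for measured genes of 7 related muscle lists (blue); black bars are list medians and the dotted line is the median of all genes (0.019). Slow-fibre genes centre at 1.83 and fast-fibre genes at -0.42, while the scaffold and other Z-disc genes spread on both sides of 0.

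Other genes of the Z-disc were taken from a list of 35, of which 31 were measured, Fbxl22 lay below the floor, and 3 are not analysed here. Their median log2 ratio was 0.054, beside -0.21 for the scaffold genes, with 18 above 0 and 13 below. By the brightest probe set, 7 were at least 1.5-fold higher and 1 was at least 1.5-fold lower, against 6.59% and 6.94% of all measured genes. At least 2-fold higher were 4, against 1.43% of all measured genes. Other probe sets would change these counts. Synpo2 was at -0.29 by its brightest, with its others at -1.18 and -0.77, and the other Fhl1 probe set was at 1.04. The 4 were Csrp3, muscle LIM protein, which binds alpha-actinin and titin cap (2959 against 510, 5.81-fold), the titin-associated ankyrin repeat genes Ankrd1 (1208 against 297) and Ankrd2 (685 against 204), and the actin-binding gene Xirp1 (1017 against 481). The other 3 past 1.5-fold, named after their values were seen, were Klhl40, which stabilises thin filament proteins, with a log2 ratio of 0.91, the four-and-a-half LIM domain gene Fhl1 (0.75) and filamin C, Flnc (0.73). The gene past 1.5-fold on the lower side, also named after the fact, was the non-muscle alpha-actinin Actn4 (111 against 202), and Actn1, the other non-muscle form, had 94.3 against 131. Titin (Ttn, 0.10), nebulin (Neb, 0.054) and the barbed-end capping subunits Capza2 (0.026) and Capzb (-0.074) lay within the probe set SD.

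Of the other sarcomere lists, the M-band had 6 of 9 genes measured and a median log2 ratio of -0.0099. In that list Obsl1, a cytoskeletal linker, was 2.01-fold higher at low signals (42.5 against 21.2), with its second probe set at -0.027, and the ubiquitin ligase Trim63 was 1.81-fold higher. Thin filament genes, 8 of 9 measured, had a median of -0.12, led by Lmod2, an actin nucleator (264 against 147), and Tpm1, fast tropomyosin (10572 against 15534). Intermediate filament and costamere genes, 9 of 13 measured, had a median of -0.21. The embryonic filament gene Nes (nestin), a partner of desmin, was at least 2.50-fold higher from a control signal below the floor, and vimentin, Vim, had 4728 against 3477. Vinculin (Vcl, -0.34) and talin-2 (Tln2, -0.38) lay below 0. These 3 lists held genes on both sides of 0, as the scaffold genes did.

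Calcineurin genes were read because calsarcins bind this phosphatase. All 10 of the list were measured, with a median log2 ratio of -0.22, 2 above 0 and 8 below. Rcan1, a calcineurin inhibitor that is itself induced by calcineurin, was 2.43-fold higher (875 against 360), and Nfatc4 was 1.96-fold higher at low signals (45.7 against 23.3). The catalytic subunit gene Ppp3cb had 720 against 958, with its other 2 probe sets at -0.33 and 0.34. Nfatc1 had 165 against 206.

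Markers of other cells also differed between the samples. All 10 macrophage and leukocyte markers were above 0, with a summed signal of 7337 on the stimulated and 2015 on the control array. Cd163, Cd14 and Itgam lay within the probe set SD, with log2 ratios of 0.090, 0.084 and 0.15. At least 2-fold higher were Gpnmb (3165 against 188), Lgals3 (2027 against 599), Tyrobp (583 against 181), Ptprc (131 against 56.3) and Cd68 (329 against 155). All 5 measured adipocyte markers and all 6 measured endothelial markers were below 0, with summed signals of 1304 against 3003 and 429 against 854. At least 2-fold lower were the adipocyte genes Cfd (395 against 1683), Adipoq (58.7 against 199), Plin1 and Cidec, and the endothelial genes Plvap (93.0 against 336) and Kdr (47.9 against 98.8). Plin1 and Cidec lay below the floor in the stimulated sample, from 63.8 and 57.6 in the control. The other measured Plin1 probe set had a log2 ratio of -0.61, short of 2-fold. Fibroblast and tendon markers had a summed signal of 15690 against 18827, with 5 of 8 below 0. The 3 above 0 were Tnmd, the tendon gene tenomodulin (283 against 42.3), Scx (273 against 155) and Pdgfra (285 against 233). The part of these cells in the scaffold values was not tested.

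The genes whose pair of signals lay nearest to that of Myoz2, by the distance of both log2 signals over the 2 samples among 8914 candidates, were Tnfrsf12a, Ankrd2, Tyrobp, Cyba and Gadd45a. Their distances ran from 0.20 to 0.33 on the log2 scale. Their signals were 521 against 225 for Tnfrsf12a, the receptor of the cytokine TWEAK, 685 against 204 for Ankrd2, 583 against 181 for Tyrobp, a myeloid adaptor, 510 against 236 for Cyba, an NADPH oxidase subunit, and 705 against 249 for the growth arrest gene Gadd45a. With 2 samples this likeness is only that of level and ratio.

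**Figure D5:**
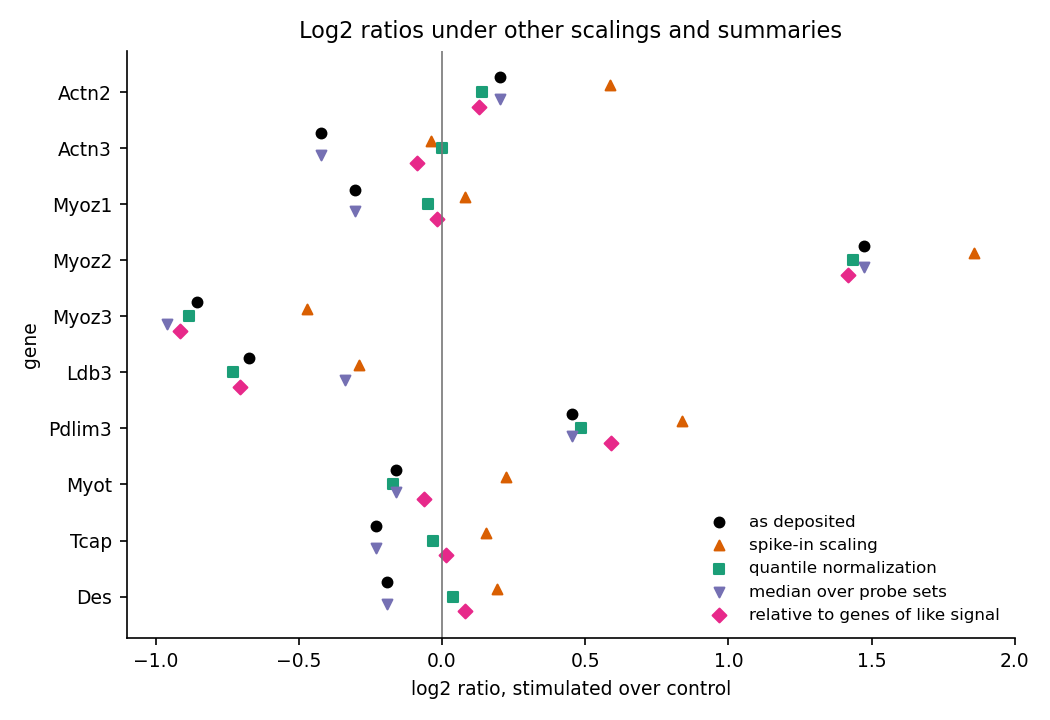
Log2 ratio of each scaffold gene with the deposited scaling (black circles), with spike-in scaling, with quantile normalization, with the median over probe sets and relative to genes of like signal. Myoz2, Pdlim3 and Actn2 stay right of 0 and Myoz3 and Ldb3 left of 0 in every setting shown, while Myoz1, Myot, Tcap and Des cross 0 with spike-in scaling, Tcap and Des also in other settings, and Actn3 reaches 0.0 with quantile normalization.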

How the data were processed

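Total RNA of both samples was extracted with an RNeasy kit and biotin-labelled by a 1-cycle protocol, per the labels' protocols. The deposited values are linear signal intensities. The authors ran MAS5 to make them, as the submitters' processing notes record. MAS5 combines the probes of a set into a linear signal and scales each array by a single factor. The sources used here give neither its version nor its target. Trimmed mean signals (2% at each end) were 76.5 on both arrays.

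Of 31099 probe sets, 57 controls were left out, and 20826 of the rest had 1 symbol in the platform annotation, 436 several and 9780 none. All 10 scaffold genes were matched by Entrez ID to RefSeq (GRCr8) with the same symbol. A measured probe set is one at or above the floor on 1 array or both. A ratio with 1 signal below the floor is a bound ("at least"). The calculations used Python 3.11.15, numpy 2.4.6 and pandas 2.3.3 and were tested on simulated data.

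The rule for named genes took all scaffold genes, the genes past 2-fold in each of 13 companion lists or otherwise up to 4 of largest ratio, and the 5 genes nearest to the scaffold gene of largest ratio. The text gives all of these but some of those under 2-fold. Other genes, which include those of the tissue check and the unmoved Z-disc genes, were chosen after their values were seen. Genes, lists, motifs and thresholds were chosen with earlier results of these data known. Upstream windows are the RefSeq sequences before the start, without the transcribed bases. Alternatives were 2 other floors, a pseudocount of 16, spike-in scaling, quantile normalization, the median over probe sets and leaving out suffixed probe sets. A further alternative, the ratio relative to the 30 genes on each side by mean signal, was added after seeing the data.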

Additional observations from a re-analysis of the deposited data

How the results depend on the processing

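Of the 8 alternatives, spike-in scaling shifts the median gene by 0.37. Left unadjusted, it gave a median log2 ratio of the scaffold genes of 0.17, beside 0.39 for all measured genes. With it, 3 scaffold genes were past 1.5-fold on the higher side and 0 on the lower. Relative to genes of like signal, an alternative chosen after seeing the data, 2 scaffold genes were at least 1.5-fold higher. With the median over probe sets 1 was at least 1.5-fold lower. Shares of all genes past 1.5-fold are given here for the main setting only, so these counts have none beside them. The counts at 2-fold, 1 higher and 0 lower, were the same under all 8. Of the 10 genes, 5 (Actn2, Myoz2, Myoz3, Ldb3 and Pdlim3) had the same sign under all 8, and 7 under all but spike-in scaling, with Actn3, Tcap and Des as the exceptions. Actn3 was -0.038 with spike-in scaling, 0.0 with quantile normalization, which gives equal ranks equal values, and -0.089 relative to genes of like signal. No paired analysis was possible because each group has 1 array and the labels do not tie the limbs to the same rat. For the same reason no replicate could be left out. Signals of the scaffold genes were at least 213 on the control and 280 on the stimulated array, so the floor and the pseudocount changed their ratios by less than the probe set SD.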
